A study of Rattus norvegicus with 9 samples.

Results

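Spleens of rats exposed to thioacetamide (TAA) were compared with control spleens, taking the 6 TAA-exposed libraries as one side and the 3 control libraries as the other. The exposed side was the mean of 2 group means, so that spleens without and with celecoxib had equal weight, and the comparison covered the 15954 of 34408 genes in the count file that passed a filter on low counts. The question was which differences from control were shared by the exposed spleens with and without celecoxib.

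TAA is a liver toxin that, given repeatedly, scars the organ to the point of cirrhosis. Celecoxib blocks cyclooxygenase 2, the product of Ptgs2, which makes prostaglandins in inflamed tissue. The spleen filters blood, removes old red cells, and holds B cells, T cells and macrophages, and in rodents its red pulp also makes red cells and granulocytes, above all when demand is high. The spleen, like other tissues, carries a circadian clock, in which the activators Clock or Npas2 and Arntl (Bmal1) switch on their own repressors, the period and cryptochrome genes, and the nuclear receptors Nr1d1 and Nr1d2 repress Arntl and Npas2 in turn.

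Per the labels, the control group had 3 wild-type rat spleen samples with no treatment named beyond "control". The TAA group had 3 wild-type spleen samples after TAA injected into the abdominal cavity at 200 mg/kg per 3 days over 8 weeks, followed by 100 mg/kg per 3 days over 8 more weeks. The group given TAA and celecoxib (TAA+celecoxib) had 3 wild-type spleen samples after the same TAA course, with celecoxib at 20 mg/kg per day in the last 8 weeks. The tissue is labelled spleen and the cell type splenocytes in all 9. The labels give no age, strain, sex, vehicle or time of day of collection, and do not say that each library came from a separate animal, so the spread that p-values are based on may be technical.

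Library totals ran from 14211789 to 19014761 counts. B cell and T cell genes marked the tissue, with Cd79b at 339.6 to 608 CPM (counts scaled to the size of each library) and Cd3e at 45.5 to 124 CPM over the 9 libraries, so the libraries carry the lymphocyte genes that spleen should. Reads of haemoglobin genes took 0.851% to 1.32% of counts in controls and 1.21% to 5.39% in exposed libraries. Control 1 and TAA+celecoxib 1 had scores of -63.2 and -60.3 on the first principal component (31.3% of the variance) and stood apart from the other 7, at -1.73 to 50.1. Albumin (Alb), a liver transcript, reached 575 CPM in TAA 1 and 89.0 CPM in control 1 but no more than 0.701 CPM elsewhere.

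In edgeR no gene passed an adjusted p of 0.05 in the exposed spleens against control. A set of genes, 2.91% of those tested, lay apart from all controls in every exposed library, with and without celecoxib. That share is near the 0.0238 that exchangeable libraries would give. Genes of the circadian clock and of granulocyte precursors were among this set. edgeR's quasi-likelihood test with Benjamini-Hochberg adjustment called 0 of 15954 genes (0%), with a smallest adjusted p of 0.0797, and 857 genes (5.37%) had an unadjusted p under 0.05, of which 470 were higher (2.95%) and 387 lower (2.43%). limma-voom also called 0, with 761 at an unadjusted p under 0.05. DESeq2 called 40 genes (24 higher and 16 lower), with 1128 at an unadjusted p under 0.05. In 34 of those 40 the exposed and control libraries did not overlap. The calls that did overlap include AABR07065768.1 and a gene model without a symbol. Their DESeq2 log2 differences of 24.9 and 23.1 lie beyond the largest in edgeR over all genes tested, 10.96, so these sizes are uncertain.

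All 6 exposed libraries lay above all 3 controls in 275 genes (1.72%) and below them in 189 (1.18%), together 464 genes (2.91%). Without control 1, where fewer libraries have to be cleared, the counts were 943 above and 594 below. The split depends on the scaling, since with total counts in place of TMM factors it was 183 above and 289 below. The differences were mostly modest: the median absolute log2 difference of the 464 was 0.47, and 95 of them reached 1 or more, a 2-fold difference. For 3 against 6 libraries the smallest 2-sided exact permutation p is 0.0238, so a gene without overlap cannot go below that on ranks. The same 0.0238 is the share of genes expected without overlap if the 9 libraries were exchangeable, beside the 2.91% seen.

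A gene was counted as shared where it did not overlap and the smaller of its 2 log2 differences from control, TAA or TAA+celecoxib, was at least 0.5 of the larger with the same sign. By this rule 422 of the 464 were shared, 260 higher and 162 lower. The other 42 were carried mainly by 1 group, 22 of them with the larger difference in TAA and 20 in TAA+celecoxib. Both groups were set against the same 3 controls, so the count of shared genes is a description. In TAA+celecoxib against TAA, 12 of the 464 had an unadjusted p under 0.05, a count that the choice of genes with all 6 libraries on one side holds down and that shows nothing of likeness. Each exposed group alone also had 0 calls against control in edgeR, with 957 genes for TAA and 803 for TAA+celecoxib at an unadjusted p under 0.05, and TAA+celecoxib against TAA had 0 calls and 812 such genes.

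The circadian clock genes differed from control in both limbs of the loop: the activators Npas2 and Arntl were lower in the exposed spleens, and Nr1d1, Nr1d2, Tef, Per2 and Per3 were higher. Of 16 clock genes tested, 7 did not overlap between exposed and control, beside 2.91% of all genes. An unadjusted p under 0.05 in edgeR was reached by 8, beside 5.37% of all genes. All 7 without overlap were shared with and without celecoxib, as were 90.9% of all genes without overlap. No clock gene passed the adjusted threshold in edgeR, and Npas2, Tef, Nr1d2 and Nr1d1 were among the DESeq2 calls. This and the lists below were chosen with earlier results of these data known, so their shares beside all genes are a description. The 3 promoters shown are those of non-overlapping clock genes that hold a known clock motif in the 250 bases before the gene's start, in RefSeq's annotation of the rat build GRCr8. Capitals mark the motif: the RORE letters TAGGTCA, through which Nr1d1 and Nr1d2 act, the D-box letters TTATGTAA, bound by Dbp and Tef, and the E-box letters CACGTG, bound by the activators.
Arntl (Bmal1), chr1:176766078-176766327, + strand: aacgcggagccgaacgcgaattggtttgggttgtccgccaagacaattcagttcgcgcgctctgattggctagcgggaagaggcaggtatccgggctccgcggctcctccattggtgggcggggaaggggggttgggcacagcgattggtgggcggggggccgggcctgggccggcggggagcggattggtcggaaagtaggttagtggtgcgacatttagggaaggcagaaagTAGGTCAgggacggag
Per2, chr9:99496994-99497243, - strand: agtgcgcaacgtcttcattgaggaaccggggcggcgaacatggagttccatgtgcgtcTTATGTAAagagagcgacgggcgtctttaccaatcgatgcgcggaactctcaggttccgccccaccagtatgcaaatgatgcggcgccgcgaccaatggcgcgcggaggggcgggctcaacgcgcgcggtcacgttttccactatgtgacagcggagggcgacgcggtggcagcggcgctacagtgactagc
Tef, chr7:115206577-115206826, + strand: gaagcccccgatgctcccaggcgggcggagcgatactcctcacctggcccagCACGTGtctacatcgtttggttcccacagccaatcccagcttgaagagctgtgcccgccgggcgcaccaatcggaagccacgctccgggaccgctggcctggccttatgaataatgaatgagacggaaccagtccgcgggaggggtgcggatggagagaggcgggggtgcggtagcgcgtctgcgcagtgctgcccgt
The RORE of Arntl begins 16 bases before the start, the D-box of Per2 192 bases before and the E-box of Tef 198 bases before. Promoters of 14 of the 16 clock genes were matched. On either strand, CACGTG occurred in 4 of these 14 and in 5.59% of 33469 promoters of this length, the D-box (also searched as TTACGTAA and TTACATAA) in 1 of 14 and in 0.932%, and TAGGTCA in 1 of 14 and in 2.26%. Npas2, Nr1d1, Nr1d2 and Per3, also without overlap, held none of these motifs in this stretch. The E-box also occurred at Ciart, Bhlhe40 and Bhlhe41, which overlapped. A match is a stretch of letters, not a measured binding site.

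Npas2, the partner of Arntl that can stand in for Clock, was at 10.2, 8.34 and 9.05 CPM in the 3 controls, and at a lowest of 2.10, a median of 3.34 and a highest of 4.56 CPM over the 6 exposed libraries. The groups were separated by a wide gap, since even the highest exposed library was far below the lowest control. The fitted log2 difference was -1.47 ± 0.25 (SE), or 2.76-fold lower (edgeR unadjusted p = 0.000225, adjusted p = 0.63), with -1.54 in TAA and -1.40 in TAA+celecoxib. Arntl, the activator itself, was at 24.7, 36.3 and 35.7 CPM in controls and 16.6, 19.4 and 24.4 CPM (lowest, median and highest) in exposed spleens. Control 1 lay next to the highest exposed library, so the groups were separated by a narrow margin. The log2 difference of Arntl was -0.67 ± 0.18 (SE; edgeR unadjusted p = 0.00444), with -0.68 in TAA and -0.65 in TAA+celecoxib.

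Among the repressors, Nr1d1 was at 24.7, 17.7 and 14.3 CPM in controls and from 33.4 to 57.0 CPM, with a median of 38.1, in exposed libraries. Nr1d2, its close relative, was at 65.5, 53.8 and 56.9 CPM in controls and from 80.9 to 100.3 CPM, with a median of 87.1, in exposed libraries. Both lay clear of the controls in every exposed library, by log2 differences of 1.09 ± 0.22 and 0.60 ± 0.11 (SE; edgeR unadjusted p = 0.000926 and 0.000491). TAA+celecoxib minus TAA was 0.17 (95% interval -0.39 to 0.72) for Nr1d1 and 0.04 (-0.25 to 0.32) for Nr1d2. Both intervals allowed a difference in either direction, and the choice of genes without overlap holds down differences between the exposed groups. These values therefore cannot decide whether celecoxib made a difference at either gene.

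Tef, a transcription factor that binds the D-box, was at 57.6, 57.7 and 61.5 CPM in controls and from 73.8 to 85.9 CPM, with a median of 77.6, in exposed spleens. It had one of the smaller differences of the group (log2 difference 0.42 ± 0.08 SE; edgeR unadjusted p = 0.000506) and one of the tightest spreads. Dbp, a factor of the same family, was at 46.1, 36.4 and 36.6 CPM in controls and from 41.6 to 77.7 CPM, with a median of 66.1, in exposed spleens. TAA 3 lay below control 1 at Dbp, and the other 5 exposed libraries lay above all controls (log2 difference 0.70 ± 0.21 SE; edgeR unadjusted p = 0.00809).

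The period genes were split. Per2 was at 18.4, 22.3 and 17.9 CPM in controls and from 22.7 to 30.7 CPM, with a median of 28.1, in exposed libraries (log2 difference 0.49 ± 0.12 SE). Per3 was at 12.8, 20.4 and 17.7 CPM in controls and from 22.7 to 36.5 CPM, with a median of 26.7, in exposed libraries (0.71 ± 0.20 SE). Per1, the period gene that also answers to glucocorticoids, overlapped, at 40.9 to 72.8 CPM in controls and 36.0 to 89.0 CPM in exposed spleens. Clock (45.4 to 70.6 CPM against 51.3 to 78.8 CPM) and the repressor Cry2 (50.4 to 60.7 CPM against 37.3 to 63.5 CPM) overlapped as well. Cry1, Bhlhe40, Bhlhe41, Ciart and Hlf also overlapped, so 9 of the 16 clock genes did.

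The separation of Per2 and Arntl depends on the scaling, since both overlapped under the size factors of DESeq2, with total counts, and when TAA 1 was left out and the factors were computed again. Npas2, Nr1d1, Nr1d2, Tef and Per3 did not overlap under any of these settings or whichever library was left out. Leaving out each library in turn gave 4 to 7 clock genes above and 1 to 3 below, and leaving out control 1 together with TAA+celecoxib 1 or with TAA 1 gave 6 above and 2 below. The labels give no time of day of collection, so the part of collection time in these differences was not tested.

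**Figure D1:**
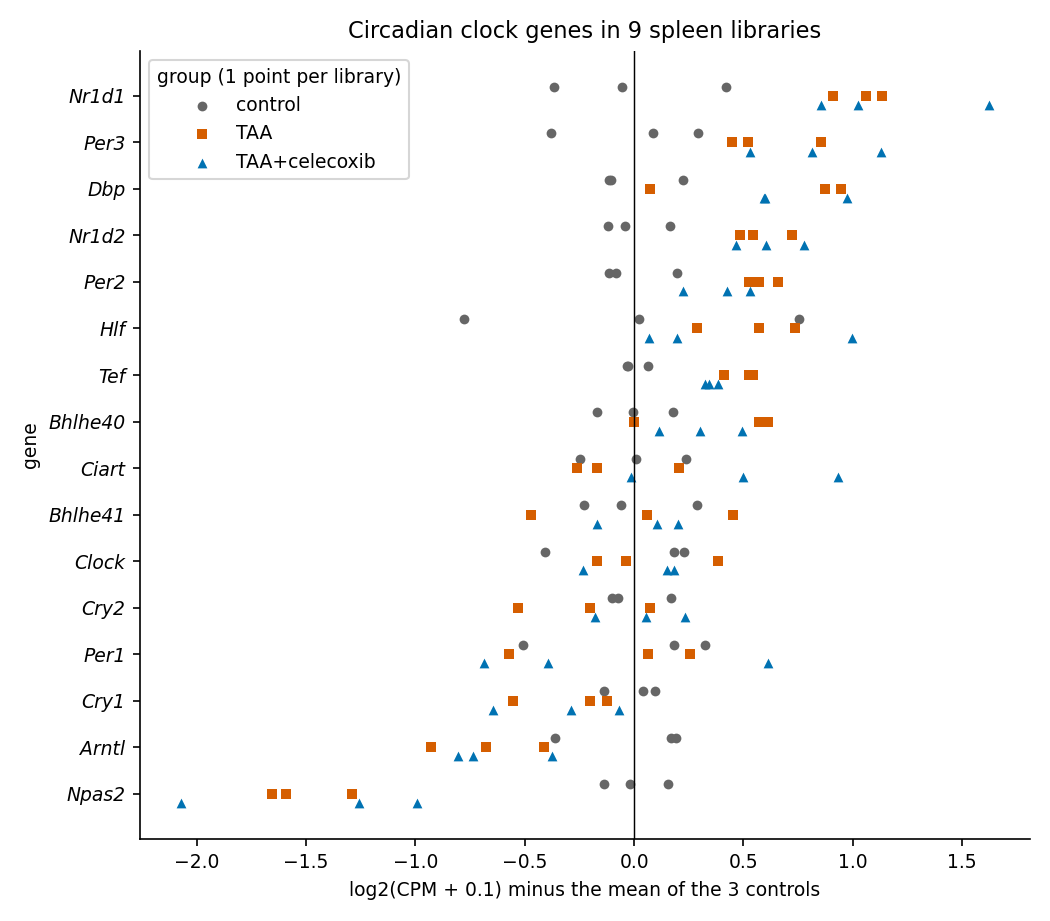
Level of the 16 clock genes tested, as log2(CPM + 0.1) minus the mean of the 3 controls, with 1 point per library in control, TAA and TAA+celecoxib spleens and genes ordered by fitted difference. The 6 exposed libraries lie to the left of all controls for Npas2 and Arntl and to the right for Nr1d1, Per3, Nr1d2, Per2 and Tef, and the 2 exposed groups are intermingled.

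Genes of granulocyte precursors were higher in the exposed spleens, most of them several fold. Of 18 granulocyte genes tested, 17 had a higher fitted level in the exposed spleens. An unadjusted p under 0.05 in edgeR was reached by 12, against 2.95% of all genes in that direction, and 11 did not overlap the controls, against 1.72%. The list was chosen with earlier results of these data known, so the comparison with all genes is a description. The median log2 difference was 2.30 over the 18 genes and 0.00 over all genes tested, with 2.71 in TAA and 1.76 in TAA+celecoxib. All 11 that did not overlap were shared, as were 90.9% of all genes without overlap. The labels name both spleen and splenocytes, and each library held a mix of cells. More cells of a type and more RNA per cell, or fewer cells and less RNA per cell, therefore cannot be told apart.

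Myeloperoxidase and the serine proteases of the primary granules are made at the promyelocyte stage. Mpo, the peroxidase of these granules, was at 4.32, 10.5 and 12.0 CPM in controls and from 26.7 to 209.6 CPM, with a median of 45.7, in exposed spleens. Every exposed library was above the highest control, and TAA 3 and TAA+celecoxib 2 stood far above the other 4. The log2 difference was 3.40 ± 0.92 (SE), or 10.6-fold (edgeR unadjusted p = 0.00507), with 3.48 in TAA and 3.33 in TAA+celecoxib. Elane, neutrophil elastase, was at 0.74, 2.78 and 2.96 CPM in controls and from 5.92 to 59.3 CPM, with a median of 11.0, in exposed spleens. Ctsg and Prtn3, the other serine proteases of these granules, differed by 2.92 ± 0.70 and 2.86 ± 0.75 on the log2 scale, and Ms4a3, a membrane protein of granulocyte precursors, by 3.55 ± 0.93. These 3 also had no exposed library within the range of the controls.

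The defensins and the antimicrobial proteins of the later granules were higher too. Camp, the cathelicidin, had the smallest p of the list: 5.36, 8.78 and 7.57 CPM in controls and 15.7 to 49.1 CPM, with a median of 25.3, in exposed spleens (log2 difference 1.89 ± 0.32 SE, 3.72-fold; edgeR unadjusted p = 0.000213, adjusted p = 0.63). Ngp, neutrophilic granule protein, was at 2.03, 12.0 and 5.92 CPM in controls and from 22.8 to 42.5 CPM in exposed spleens, with nearly equal differences in TAA (2.22) and TAA+celecoxib (2.16). Lcn2, which binds bacterial iron carriers, was at 2.10, 5.28 and 3.47 CPM in controls and from 9.30 to 67.1 CPM in exposed spleens.

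The alpha-defensins Defa5, RatNP-3b and Np4 lie near each other on chromosome 16 and are similar in sequence, so reads may be divided among them in ways that cannot be checked here. Defa5 was at 11.2, 15.2 and 13.5 CPM in controls and from 29.7 to 225 CPM, with a median of 53.7, in exposed spleens. Np4 was highest in TAA+celecoxib 2, at 671 CPM, and at 37.4 to 257 CPM in the other exposed libraries, against 11.3 to 17.4 CPM in controls. The fitted differences were 2.42 ± 0.49 for Defa5, 3.04 ± 0.67 for RatNP-3b and 3.58 ± 1.10 for Np4 (log2, SE), the last being the largest of the list. Single libraries weighed on several of these sizes: without TAA+celecoxib 2 the log2 difference was 2.24 for Np4, 2.62 for Mpo and 2.90 for Ms4a3. Without TAA 3 it was 2.17 for Elane, 2.25 for Prtn3 and 1.87 for Lcn2, and without control 2 it was 2.93 for Ngp and 3.68 for Prtn3.

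The other 7 granulocyte genes overlapped. S100a8, a subunit of calprotectin, was at 23.5, 101 and 79.0 CPM in controls and from 89.0 to 652 CPM, with a median of 144, in exposed spleens, and its partner S100a9 at 44.4, 184 and 149 CPM in controls and from 132 to 1009 CPM in exposed spleens. Their fitted log2 differences were 1.5 ± 0.63 and 1.26 ± 0.63 (SE), 2.83-fold and 2.40-fold higher. Csf3r, the receptor of the growth factor G-CSF, was at 17.6 to 79.6 CPM in controls and 16.6 to 132 CPM in exposed spleens, and Cxcr2, a chemokine receptor of circulating neutrophils, at 1.79 to 19.3 and 3.8 to 52.9 CPM, with log2 differences of 0.28 ± 0.57 and 0.67 ± 0.80. Control 1 was the lowest control at each of these 4, and TAA 3 the highest of all libraries. Gfi1, a transcription factor that lymphocytes also use, was the single granulocyte gene with a lower fitted level (log2 difference -0.41 ± 0.21 SE).

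**Figure D2:**
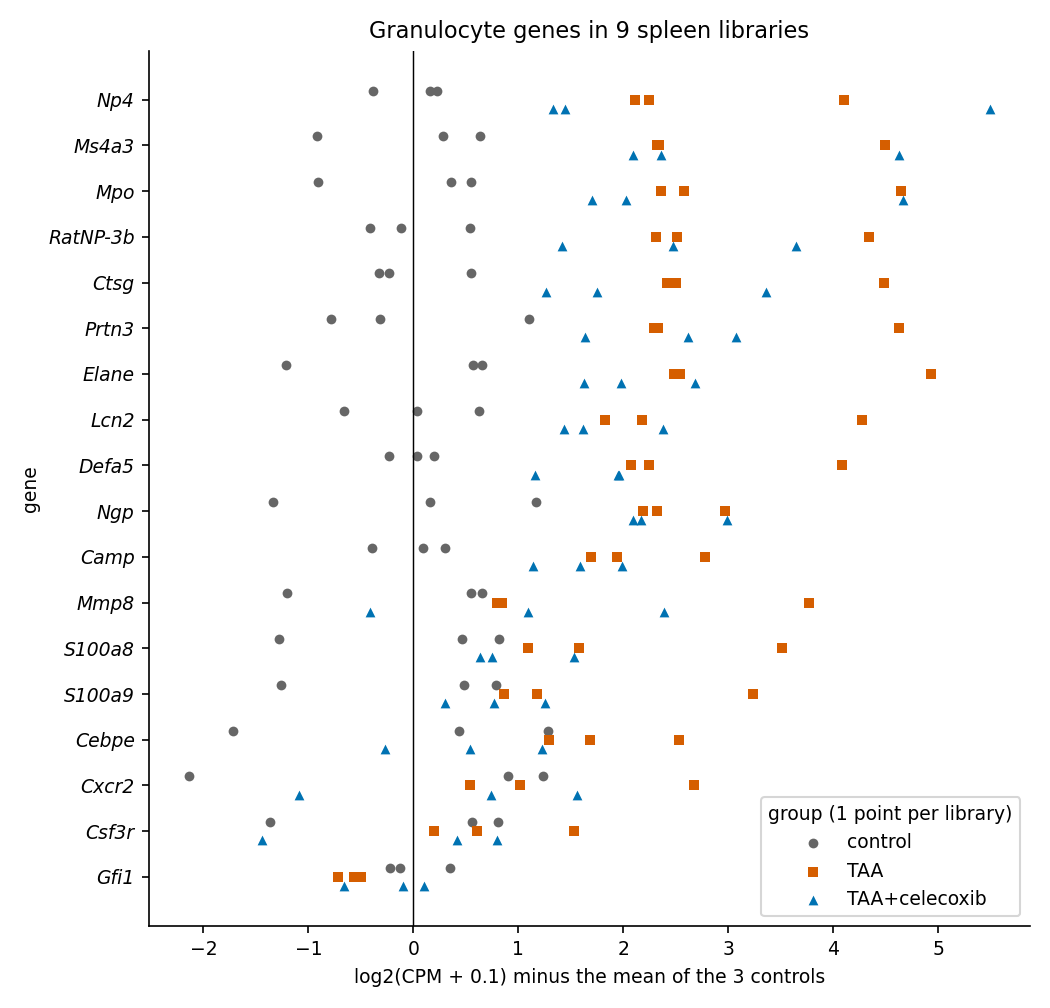
Level of the 18 granulocyte genes tested, as log2(CPM + 0.1) minus the mean of the 3 controls, with 1 point per library and genes ordered by fitted difference. The 11 genes from Np4 down to Camp have every exposed library to the right of every control, and the 7 from Mmp8 down to Gfi1 overlap, with TAA 3 the farthest to the right at most of them.

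The size of the granulocyte difference varied between libraries more than its direction did. The mean log2 CPM over the 18 genes was 2.09, 3.47 and 3.15 in the controls and ran from 4.02 in TAA+celecoxib 3 to 6.35 in TAA 3. The count of members without overlap was 11 or 12 whichever library was left out, 11 under every scaling tried, and 12 without control 1 and TAA+celecoxib 1 together. Between the exposed groups the median difference over the list was -0.97 (TAA+celecoxib minus TAA). Defa5, at -1.38 (95% interval -2.52 to -0.24; edgeR unadjusted p = 0.0231, adjusted p = 0.890) and Elane, at -1.65 (-3.31 to -0.00; unadjusted p = 0.0496), had intervals that lay below 0. For the other 9 genes without overlap the interval included 0.

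Erythroid and cell division genes had higher fitted levels in both exposed groups, with wide overlap. Of 24 erythroid genes, 23 had a higher fitted level and 18 an unadjusted p under 0.05 in edgeR, where 2.95% of all genes did in that direction, but 0 were free of overlap, where 1.72% of all genes lay above the controls. The median log2 difference was 2.09, with 1.98 in TAA and 2.19 in TAA+celecoxib. Slc4a1, the anion exchanger of the red cell membrane, was at 255, 82.6 and 12.1 CPM in controls and from 131 to 1776 CPM, with a median of 586, in exposed spleens. Control 1 lay above TAA 2 and TAA+celecoxib 3 at this gene. Sptb, the beta chain of red cell spectrin, was at 69.0, 41.6 and 10.9 CPM in controls and from 55.1 to 547 CPM in exposed spleens (log2 difference 2.65 ± 0.94 SE; edgeR unadjusted p = 0.0199), and Ermap and Fech, a red cell adhesion protein and the last enzyme of haem synthesis, differed by 3.18 ± 1.14 and 1.83 ± 0.66.

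These values depend on single libraries. Without control 1 the log2 difference was 4.11 for Slc4a1, 4.42 for Ermap and 3.28 for Sptb, and without TAA+celecoxib 2 it was 2.19, 2.55 and 2.02. Without control 1, 18 of the 24 erythroid genes lay above the controls with no overlap, beside 943 of the 16237 genes then tested. Without control 2, and likewise without control 3, 0 of the 24 had an unadjusted p under 0.05. Without TAA 1, 5 of the 24 had one, and without TAA+celecoxib 2 it was 7. Those 2 libraries had the highest mean erythroid levels, 8.15 and 8.42 log2 CPM, and also the highest haemoglobin shares, against 3.63 to 6.14 in controls and 5.49 to 7.01 in the other exposed libraries.

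All 27 cell division genes tested had a higher fitted level in the exposed spleens, with a median log2 difference of 0.77 (0.70 in TAA and 0.84 in TAA+celecoxib). An unadjusted p under 0.05 in edgeR was reached by 7, against 2.95% of all genes in that direction, and 2, Cenpe and Tyms, had no overlap, against 1.72%. The count of 7 was 12 with no filter on low counts and 12 with the exposed libraries as 1 group. Cenpe, a motor protein of the mitotic spindle, was at 24, 18.3 and 19.6 CPM in controls and from 24.9 to 72.2 CPM, with a median of 34.8, in exposed spleens. Mki67, the proliferation marker, was at 209, 102 and 89.5 CPM in controls and from 163 to 764 CPM, with a median of 276. Cenpf, a kinetochore protein, was at 28.9, 14.0 and 15.9 CPM in controls and from 25.9 to 110 CPM, with a median of 41.0. Control 1 was the highest control at all 3 of these genes. Without it 20 of the 27 lay above the controls with no overlap, beside 943 of the 16237 genes then tested. An unadjusted p under 0.05 in edgeR was then reached by 18 of the 27, beside 866 of all genes in either direction. This count in the list was 0 without control 2, 1 without control 3, 2 without TAA 1 and 20 without TAA+celecoxib 3. The libraries with the highest cell division levels, TAA+celecoxib 2 and TAA 1, were those with the highest erythroid levels, and the part of one list in the other was not tested.

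**Figure D3:**
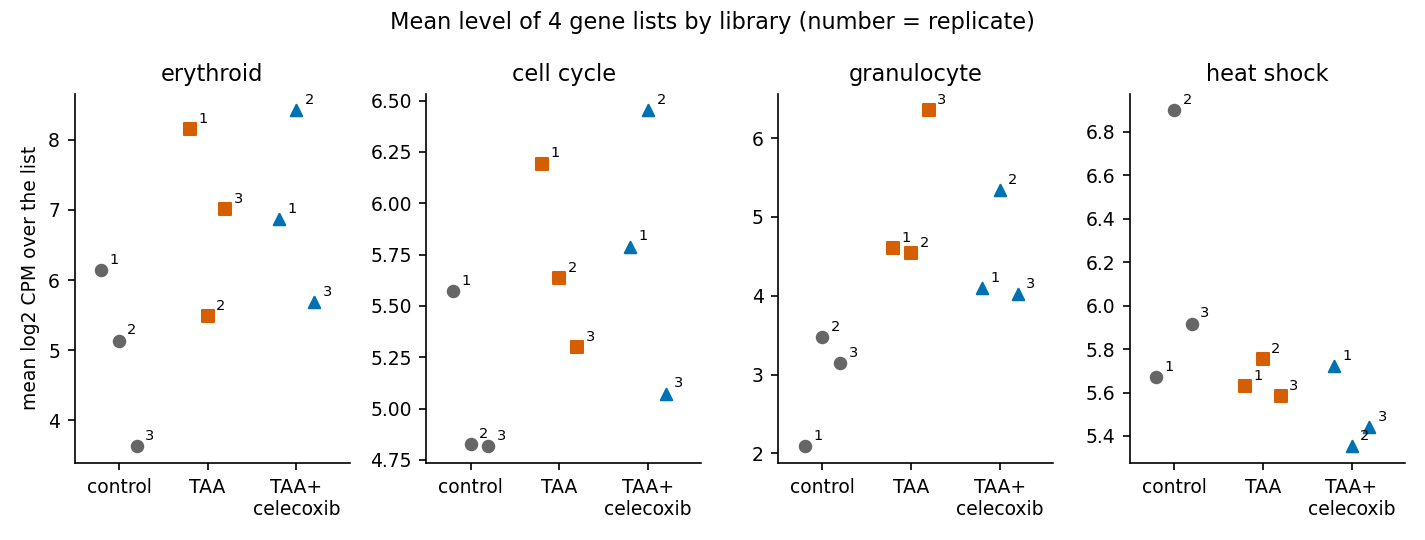
Mean log2 CPM over the tested members of the erythroid, cell cycle, granulocyte and heat shock lists in each library, with the replicate number beside each point. Each panel has its own vertical scale, which does not start at 0. Granulocyte levels separate the 6 exposed libraries from the 3 controls, erythroid and cell cycle levels overlap at control 1, and the heat shock panel is spread by control 2.

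The heat shock genes went the other way. All 11 tested had a lower fitted level in the exposed spleens, with a median log2 difference of -0.55 (-0.61 in TAA and -0.49 in TAA+celecoxib), and 6 had an unadjusted p under 0.05 in edgeR, against 2.43% of all genes in that direction. Hspa1b, the inducible HSP70, was at 2.28, 43.2 and 17.6 CPM in controls and from 0.842 to 7.21 CPM in exposed spleens, so that control 1 lay inside the exposed range. Bag3, a partner of HSP70, was the 1 member without overlap, beside 1.18% of all genes below the controls. It was at 36.0, 43.4 and 42.0 CPM in controls and 23.5 to 34.7 CPM in exposed spleens. With total counts in place of TMM factors, 0 of the 11 were without overlap. Control 2 was the highest library at Dnaja1 (418 CPM, the other controls at 162 and 231) and Dnajb1 (192, 101 and 137 CPM), both partners of HSP70. Without control 2 the log2 difference of Hspa1b went from -2.77 to -1.69, 4 of the 11 had a higher fitted level and 1 had an unadjusted p under 0.05.

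The 2 genes with the smallest p had entries of like name in the file. LOC100911575, annotated as similar to the ribosomal protein P2 and placed by the file at chromosome 1, 214428526 to 214430515, was at 178, 144 and 285 CPM in controls and from 7.57 to 28.3 CPM, with a median of 14.8, in exposed spleens. Even the lowest control was several times as high as the highest exposed library. The log2 difference was -3.65 ± 0.38 (SE), or 12.6-fold lower (edgeR adjusted p = 0.0797, and 4.53e-17 to 0.525 over the alternatives), with -3.96 in TAA and -3.35 in TAA+celecoxib. The entry named Rplp2, with the same exon length of 348 bases, held at most 0.723 CPM in any library. Tnks2, tankyrase 2, which adds ADP-ribose chains to proteins, was at 14.6, 7.95 and 17.3 CPM in controls and from 0.142 to 0.982 CPM, with a median of 0.732, in exposed spleens at its chromosome 1 entry (255479261 to 255532143). The log2 difference there was -4.48 ± 0.50 (SE; edgeR adjusted p = 0.0845, and 4.59e-14 to 0.578 over the alternatives). A second Tnks2 entry, on an unplaced scaffold, was at 9.43, 1.11 and 1.02 CPM in controls, 14.99, 24.8 and 21.4 CPM in the TAA libraries, and 7.09, 8.70 and 1.07 CPM in TAA+celecoxib, so this entry lay on the other side of control in TAA and overlapped control in TAA+celecoxib. Both LOC100911575 and Tnks2 passed the adjusted threshold when the 6 exposed libraries were fitted as 1 group (adjusted p = 0.0266 for each), and both are uncertain, since reads may be divided between entries of like sequence, which could not be compared here.

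Rpl35al1, a ribosomal protein L35a-like gene on chromosome 12 (7424258 to 7424658), was at 19.7, 20.5 and 12.5 CPM in controls, 0.142, 3.29 and 6.32 CPM in the TAA libraries and 0, 0 and 0.0564 CPM in TAA+celecoxib, where a count of 0 allows up to 0.19 and 0.21 CPM (3 counts, counting error only). All exposed libraries were below all controls, but the 2 exposed groups did not share the size of the difference (TAA+celecoxib against TAA, edgeR unadjusted p = 0.0011). No gene passed the adjusted threshold in that comparison. The entry named Rpl35a, on chromosome 5 with the same exon length of 333 bases, was at 28.7, 20.5 and 16.6 CPM in controls and 3.51 to 34.1 CPM in exposed spleens and overlapped. The build of these coordinates is not settled by the sources used here.

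**Figure D4:**
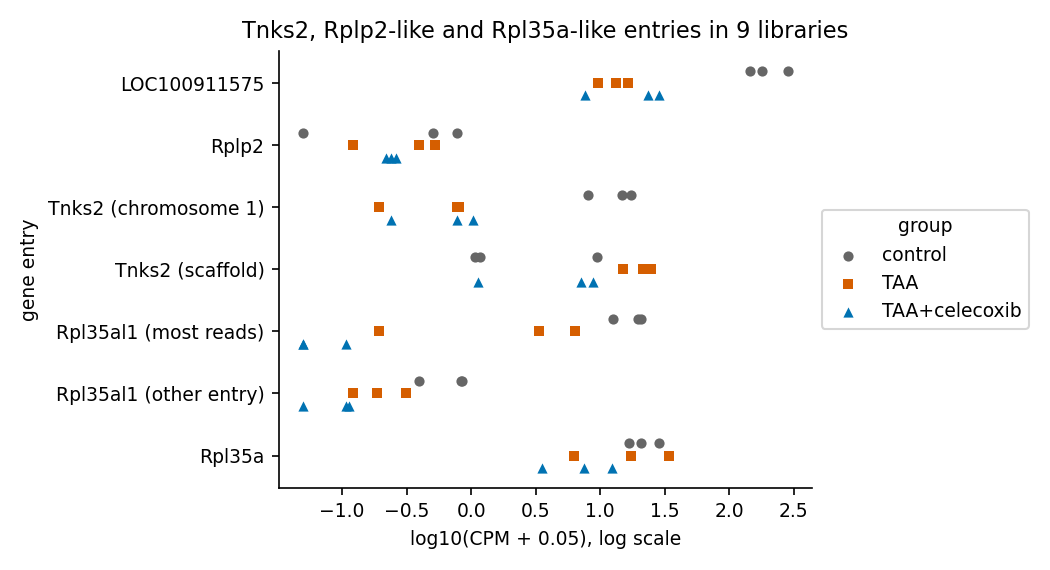
Level of 7 gene entries of like name, as log10(CPM + 0.05), with 1 point per library in control, TAA and TAA+celecoxib spleens. LOC100911575, the chromosome 1 entry of Tnks2 and both entries of Rpl35al1 have all exposed libraries to the left of all controls, the scaffold entry of Tnks2 is highest in TAA, and Rplp2 and Rpl35a overlap.

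The other genes with the smallest p among those lower in every exposed library mostly had small differences and tight spreads. Jaml, an adhesion molecule of leukocytes, was at 88.0, 82.8 and 85.6 CPM in controls and from 54.7 to 68.3 CPM, with a median of 57.6, in exposed spleens (log2 difference -0.52 ± 0.09 SE; edgeR unadjusted p = 0.000269, adjusted p = 0.63). Gzmm, a granzyme of cytotoxic lymphocytes, was at 95.8, 82.9 and 99.2 CPM in controls and from 54.8 to 81.7 CPM in exposed spleens, the highest of them TAA+celecoxib 3. Tnfrsf18, the receptor GITR of regulatory and activated T cells, was at 16.4, 13.5 and 13.2 CPM in controls and from 7.67 to 9.89 CPM in exposed spleens (-0.70 ± 0.15). Lgals1, galectin 1, was lower by -0.78 ± 0.17 and Clcf1, a cytokine of the interleukin 6 family, by -0.58 ± 0.13. Dpt, dermatopontin of the extracellular matrix, was at 153, 202 and 124 CPM in controls and from 81.7 to 113 CPM in exposed spleens (-0.74 ± 0.16). These 6 were shared with and without celecoxib. So were the transcription factor Sp6 (-1.40 ± 0.26), the unnamed gene RGD1564664 (-1.11 ± 0.26) and the pseudogene AABR07044416.1 (-2.31 ± 0.55).

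Klrd1 and Asb2 were lower in every exposed library but the difference was carried mainly by TAA. Klrd1, the NK cell receptor CD94, was at 23.1, 25.9 and 32.0 CPM in controls, 12.9, 11.9 and 13.7 CPM in the TAA libraries and 19.1, 21.3 and 20.3 CPM in TAA+celecoxib. The TAA+celecoxib libraries lay between the other groups with no overlap, and TAA+celecoxib minus TAA was 0.66 (95% interval 0.30 to 1.01; edgeR unadjusted p = 0.00226, adjusted p = 0.890). Asb2, a ubiquitin ligase subunit of haematopoietic cells, was at 36.1, 34.4 and 38.0 CPM in controls, 17.8, 20.3 and 16.3 CPM in the TAA libraries and 32.6, 25.5 and 26.0 CPM in TAA+celecoxib, the same order as Klrd1.

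Outside the granulocyte and clock lists, 5 genes higher in every exposed library had the smallest p. LOC108348048, annotated as von Willebrand factor A domain-containing protein 5A, was at 6.10, 3.56 and 1.93 CPM in controls and from 9.04 to 19.4 CPM in exposed spleens (log2 difference 1.69 ± 0.37 SE). Abca4, a lipid transporter, was at 0.74, 0.389 and 0.285 CPM in controls and from 1.33 to 5.12 CPM in exposed spleens (2.48 ± 0.62). Pls1, the actin-bundling plastin 1, and Chrdl1, an antagonist of bone morphogenetic proteins, differed by 0.86 ± 0.19 and 0.90 ± 0.21. These 4 were shared, whereas AABR07060952.1, a protein-coding gene with no description in the file, was carried mainly by TAA+celecoxib (1.30, against 0.65 in TAA).

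Among the marker lists of other spleen cells, dendritic cell genes held 2 shared members. Batf3, a transcription factor that type 1 dendritic cells need, was at 26.9, 23.7 and 18.8 CPM in controls and from 8.98 to 18.3 CPM, with a median of 14.4, in exposed spleens (log2 difference -0.71 ± 0.21 SE; edgeR unadjusted p = 0.00904). Irf8, which directs the same lineage and B cells, was at 856, 835 and 739 CPM in controls and from 483 to 707 CPM in exposed spleens (-0.34 ± 0.14). Xcr1, the chemokine receptor of type 1 dendritic cells, was at 27.3 to 47.4 CPM in controls, 19.7 to 22.2 CPM in TAA and 28.8 to 37.2 CPM in TAA+celecoxib. TAA+celecoxib minus TAA was 0.72 at this gene (95% interval 0.26 to 1.18; edgeR unadjusted p = 0.00656, adjusted p = 0.890). The 11 dendritic cell genes had a median log2 difference of -0.34, with 8 lower. The 3 with an unadjusted p under 0.05 and the 2 without overlap stand beside 2.43% and 1.18% of all genes in that direction.

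Of 20 T cell genes tested, 19 had a lower fitted level in the exposed spleens, with a median of -0.72 in TAA and -0.05 in TAA+celecoxib. The mean log2 CPM over the list was 5.82 to 6.26 in controls and 5.08 to 5.50 in TAA. In TAA+celecoxib it was 6.16, 5.42 and 6.02, so TAA+celecoxib 2 lay among the TAA libraries and the other 2 among the controls. The difference between the exposed groups was not tested for the list. Cd8a, a co-receptor of cytotoxic T cells, was at 79.5, 80.8 and 96.2 CPM in controls, 45.0, 55.1 and 38.1 CPM in the TAA libraries and 93.3, 91.7 and 91.3 CPM in TAA+celecoxib. The TAA+celecoxib libraries were thus within the control range, and TAA+celecoxib minus TAA was 1.0 (95% interval 0.67 to 1.33; edgeR unadjusted p = 8.2e-05). No gene passed the adjusted threshold in this comparison, where the smallest adjusted p in edgeR was 0.328. Cd5, a receptor on T cells and some B cells, was the 1 member without overlap, beside 1.18% of all genes below the controls, and was shared. It was at 16.2, 10.5 and 9.73 CPM in controls and 5.48 to 9.68 CPM in exposed spleens, so the lowest control and the highest exposed library nearly met. Cd8b, the partner of Cd8a, was likewise lowest in the 3 TAA libraries (TAA+celecoxib minus TAA 0.86, 95% interval 0.34 to 1.39). All 14 NK and cytotoxic genes had a lower fitted level, with a median of -0.25, but 2 were higher in TAA alone and 2 in TAA+celecoxib alone. The direction also depends on single libraries. Of the 15 genes tested without control 3, 6 had a higher fitted level, and it was 3 of 15 without control 1 and 3 of 15 without control 2. Klrd1 was the 1 of the 14 without overlap, beside 1.18% of all genes below the controls. It was also the 1 with an unadjusted p under 0.05 in edgeR, beside 2.43% of all genes in that direction. Il2rb and Eomes, a cytokine receptor chain and a transcription factor of NK and T cells, had log2 differences of -0.32 ± 0.15 and -0.52 ± 0.24.

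B cell genes lay near control, with a median log2 difference of 0.02 over 14 genes. Ebf1, an early B cell transcription factor, was the 1 without overlap, beside 1.72% of all genes above the controls. It was at 32.1 to 33.2 CPM in controls and 33.3 to 53.6 CPM in exposed spleens. With total counts in place of TMM factors, 0 of the 14 were without overlap. Of 12 platelet genes 11 had a higher fitted level (median 0.53). Ppbp, a platelet chemokine, was shared, at 7.21, 20.8 and 19.1 CPM in controls and 24.5 to 36.0 CPM in exposed spleens (log2 difference 0.98 ± 0.31 SE). Gp9 and Itga2b, subunits of platelet receptors, overlapped, with log2 differences of 0.55 ± 0.24 and 0.42 ± 0.21.

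Mast cell, macrophage and interferon lists had different medians in the exposed groups, with libraries that overlapped for the first 2. The median over 13 mast cell, eosinophil and basophil genes was 1.18 in TAA and 0.05 in TAA+celecoxib, that over 16 macrophage genes 0.65 and -0.03, and that over 26 interferon genes -0.36 and 0.33. The mean log2 CPM of the mast cell list was 3.36, 2.49 and 3.8 in TAA and 1.75, 2.84 and 1.74 in TAA+celecoxib, so TAA+celecoxib 2 lay above TAA 2. That of the macrophage list was 7.74, 7.55 and 8.22 in TAA and 6.06, 7.57 and 7.51 in TAA+celecoxib, against 6.50, 7.57 and 7.55 in controls, so the low library was TAA+celecoxib 1. That of the interferon list was 5.88 to 5.98 in TAA and 6.75, 6.75 and 6.09 in TAA+celecoxib, where TAA+celecoxib 3 lay within the control range of 6.07 to 6.38. None of these differences between the exposed groups was tested as a list. Cpa3, carboxypeptidase A of mast cells, was at 0.555, 1.39 and 1.02 CPM in controls, 9.80, 3.77 and 6.16 CPM in the TAA libraries and 3.23, 1.47 and 1.01 CPM in TAA+celecoxib. All TAA libraries lay above the other groups, and TAA+celecoxib minus TAA was -1.78 (95% interval -3.0 to -0.57). Mcpt1 and Cma1, mast cell proteases, had like differences between the exposed groups (-1.63 and -1.20). Siglec1, a receptor of marginal zone macrophages, was at 192, 238 and 280.4 CPM in controls, 376, 338 and 497 CPM in the TAA libraries and 236, 298 and 332 CPM in TAA+celecoxib, and Adgre1, the F4/80 antigen, ranged from 22.9 to 132 CPM in exposed spleens against 29.3 to 50.4 CPM in controls. In TAA, 3 of the 26 interferon genes had a higher fitted level than control, and in TAA+celecoxib 24 of 26 did. The antiviral genes Rsad2 (log2 difference 1.61 ± 0.63) and Bst2 (-0.62 ± 0.18) both overlapped, and lay on opposite sides of control, and Oasl differed between the exposed groups (TAA+celecoxib minus TAA 0.64, 95% interval 0.18 to 1.10).

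**Figure D5:**
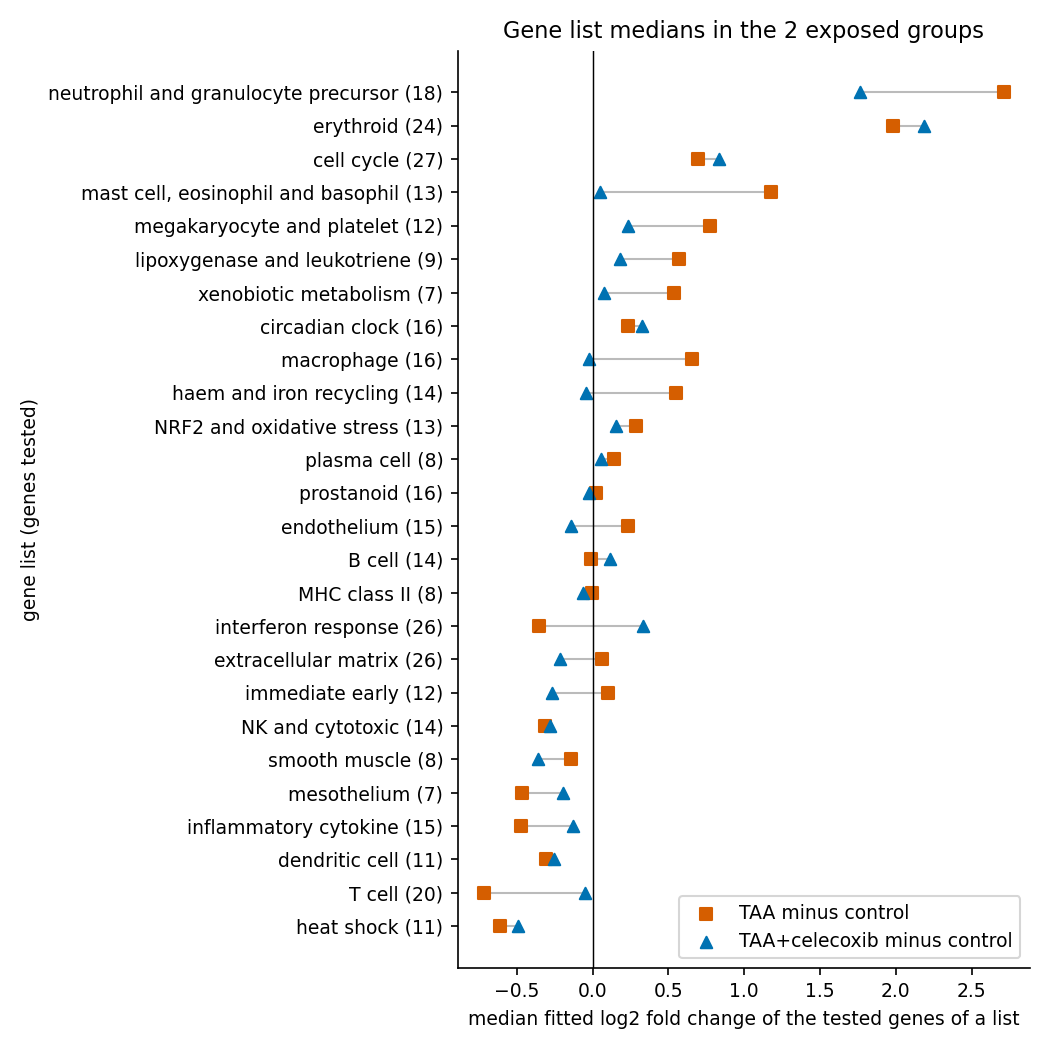
Median fitted log2 fold change against the same 3 controls over the tested genes of 26 gene lists with 7 or more genes tested, for TAA (squares) and TAA+celecoxib (triangles), ordered by the median of exposed against control. The granulocyte, erythroid and cell cycle lists lie to the right of 0 and the heat shock list to the left in both groups, while the medians of the T cell, interferon, macrophage and mast cell lists lie apart between groups. Single libraries of the 2 groups overlap in the T cell, macrophage and mast cell lists.

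In the arachidonic acid pathways, Alox15 was the member that separated exposed from control. This lipoxygenase was at 12.6, 13.6 and 17.4 CPM in controls and from 18.8 to 121 CPM, with a median of 40.0, in exposed spleens (log2 difference 1.87 ± 0.60 SE; edgeR unadjusted p = 0.013), with 1.82 in TAA and 1.92 in TAA+celecoxib. TAA+celecoxib 2 was the highest library, and without it the log2 difference was 1.21. Alox15 was the 1 of 9 lipoxygenase and leukotriene genes without overlap, beside 1.72% of all genes above the controls. Of 16 prostanoid genes tested, 0 had an unadjusted p under 0.05 in edgeR and 0 were free of overlap, beside 5.37% and 2.91% of all genes. The median log2 difference was 0.05. Ptgs2, the target of celecoxib, was low throughout, at 0.890 to 1.17 CPM in controls and 0.639 to 1.65 CPM in exposed spleens, with a fitted log2 difference of 0.00 ± 0.36 (SE). Hpgd, which breaks prostaglandins down, was at 21.4, 14.3 and 18.6 CPM in controls, 9.32 to 10.4 CPM in TAA and 14.4 to 27.2 CPM in TAA+celecoxib. Ptgs1, which encodes cyclooxygenase 1, was at 29.6, 39.9 and 42.0 CPM in controls, 47.9 to 73.2 CPM in TAA and 27.4 to 42.6 CPM in TAA+celecoxib.

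The 10 further lists of spleen cells and pathways (plasma cell, haem and iron recycling, inflammatory cytokine, MHC class II, extracellular matrix, smooth muscle, endothelium, NRF2 and oxidative stress, xenobiotic metabolism and immediate early genes) held 0 genes without overlap among 126 tested, with 4 higher and 3 lower at an unadjusted p under 0.05, a share near the 5.37% of all genes, and medians between -0.34 and 0.36. The 4 lists of tissues that could adhere to a spleen (hepatocyte, pancreatic acinar, adipocyte and mesothelium) had 16 genes tested, 0 without overlap and 0 at an unadjusted p under 0.05. A comparison of groups does not show such tissue in single libraries. Over the 3 hepatocyte genes tested, of 12 listed, the mean was 5.81 log2 CPM in TAA 1 and 2.94 in control 1. In the other libraries it was -2.67 to -0.98. Over all 29 lists, 28 of 389 genes tested had no overlap, beside 2.91% of all genes, and 18 of these 28 were clock or granulocyte genes.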

How the data were processed

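RNA of 9 rat spleen samples, 3 per group, was sequenced on Illumina libraries. The submitters' processing notes name HISAT2 2.0.5, an aligner, and the build mRatBN7.2. For the counting tool, its strand setting and the annotation, the names were not given in the sources used here. Raw counts per gene, and the authors' FPKM values, which entered no test, made up the deposited table. Genes were filtered with filterByExpr (minimum count 10, total 15), scaled by TMM and tested with edgeR 4.0.16 in R 4.3.3 (quasi-likelihood, 3 groups, contrast of the mean of both exposed groups against control), with Benjamini-Hochberg adjustment at 0.05. CPM are TMM-scaled. limma-voom 3.58.1, DESeq2 1.42.0, other scalings and filters, a replicate block and leaving out libraries were alternatives. The steps were tested on simulated data. Intervals and floors cover counting error or the spread between libraries only.

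Members and lists were chosen with earlier results of these data known. Named genes were up to 15 per direction with the smallest p among those without overlap, symbol and a mean of 1 CPM or more, the 3 smallest p of each described list, Ptgs1 and Ptgs2. Arntl, Per3, Dbp, Per1, Clock, the cryptochromes, Mpo, Np4, Elane, Prtn3, Ms4a3, S100a8, S100a9, Csf3r, Cxcr2, Gfi1, Slc4a1, Tyms, Bag3 and entries of like name were added after their values were seen. Pseudogenes and near copies are uncertain.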

Additional observations from a re-analysis of the deposited data

Results flagged for a closer look

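Within the 6 exposed libraries, 10 of 92 genes tested had 1 library far from the other 5 (Dixon's test at the 95% level), which chance alone gives in about 1 in 20 groups. TAA 3 was the high library at 5 granulocyte genes: Defa5 at 225 CPM (29.7 to 63.0 in the others), Elane at 59.3 (5.92 to 12.4), Lcn2 at 67.1 (9.30 to 18.0), S100a8 at 652 (89.0 to 171) and S100a9 at 1009 (132 to 255). Defa5, Elane and Lcn2 lay above every control in the other 5 libraries as well. TAA 1 was high at Alb, at 575 CPM (0 to 0.701), and low at Il2rb, at 75.3 CPM (108 to 133). TAA+celecoxib 2 was high at Nr1d1, at 57.0 CPM (33.4 to 40.6), and low at RGD1564664, at 3.72 CPM (7.84 to 11.8). TAA+celecoxib 3 was high at Gzmm, at 81.7 CPM (54.8 to 63.4). What set these libraries apart was not tested.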

How the results depend on the processing

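The number of genes called in exposed against control went from 0 to 40 with DESeq2 (24 higher, 16 lower), 2 with no filter on low counts, 2 with the exposed libraries as 1 group (all lower), and 0 to 1 when 1 library was left out: Rpl35al1 without TAA 1 and LOC100911575 without TAA+celecoxib 2. Without control 1 and TAA 1 it was 1, NEWGENE_1310561, a lower gene. TAA against control had 55 calls with DESeq2, 0 to 1 with 1 library left out and 1 without control 1 and TAA 1. TAA+celecoxib against control had 26 and 0 to 2, and TAA+celecoxib against TAA 25, 0 to 3 and 2. Genes without overlap numbered 183 above and 289 below with total counts, 298 to 943 above and 226 to 613 below with 1 library left out, 1144 and 1088 without control 1 and TAA+celecoxib 1, and 964 and 869 without control 1 and TAA 1; fewer libraries make overlap rarer. The shared percentage, 90.9, ranged from 74.2 to 93.0. Those pairs of libraries were chosen after seeing the data.

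Of 1520 values of 80 gene entries over the alternatives, 1476 kept direction and side of the threshold, 36 passed it and 8, all Ptgs2, changed sign: -0.0229 (limma-voom), -0.0270 (total counts), -0.000482 (no filter), -0.0141 (replicate block), -0.16 to 0.12 (1 library left out) and -0.0654 (without control 1 and TAA+celecoxib 1). The cause was not tested. Scaling by total counts moved the median of all genes by -0.03.

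Deviations of same-numbered libraries correlated at 0.475, 0.178 and 0.337 between control and TAA+celecoxib, each best with its own number. Between control and TAA the correlations were -0.021 to 0.240, and numbers 1 and 3 were best with their own. Between the exposed groups they were -0.213 to 0.120, and number 1 was best with its own. Since this did not hold for every number over the 3 groups, the numbers were not taken as pairs. With the replicate block edgeR called 0 genes (smallest adjusted p 0.268, 1225 at an unadjusted p under 0.05), and 0 in TAA+celecoxib against control. It raised the genes at an unadjusted p under 0.05 from 7 to 17 in the cell division list, from 2 to 5 in the platelet list and from 1 to 3 in the NK list.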
